A study of Mus musculus with 6 samples.

Results

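The genes described here are the olfactory and vomeronasal receptor genes of the mouse, and the data are the sites at which DNA was recovered with Tug1, a long non-coding RNA, in cultured kidney podocytes. All peaks inside or within 5 kb of a protein-coding gene whose symbol starts with Olfr, Vmn1r or Vmn2r were taken. They numbered 695 of 130269 peaks and merged into 629 regions. The genes numbered 1465 of 21887 protein-coding genes, namely 1110 Olfr, 231 Vmn1r and 124 Vmn2r genes on 19 chromosomes. With gaps under 500 kb they formed 79 clusters. Of the 695 peaks, 84 were reached only between 4 and 5 kb from a receptor gene, and a further 95 peaks lay between 5 and 6 kb and were left out.

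The peaks came from ChIRP-seq, in which biotinylated oligonucleotides complementary to an RNA pull down the chromatin bound to it. A set of 48 probes along Tug1 was split by position into even and odd probes, and each set was used in 2 pulldowns, called even replicate 1, even replicate 2, odd replicate 1 and odd replicate 2. All libraries came from podocytes immortalized with a temperature-sensitive SV40 T antigen that had spent 10 days at the differentiating temperature of 37 degrees (passages 10 to 12), with no genotype contrast and no treatment. Each deposited list was called against 1 of 2 input libraries, the input bearing the same replicate number. Nothing in the labels states that the replicates were separate cultures, so their spread may be technical. No pulldown with unrelated probes entered the analysis, and peak lists carry neither read depth nor expression, so the identity of the cells could not be checked against podocyte markers.

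Olfactory receptors are G protein-coupled receptors of the sensory neurons of the nose, and vomeronasal receptors of both families detect pheromones and other social cues in the vomeronasal organ. Their genes sit in tandem arrays. A mature olfactory neuron transcribes 1 allele of a single receptor gene, and in other cells the arrays are generally held in heterochromatin; a kidney podocyte is not a known site of their main function. Most Olfr and Vmn1r proteins are encoded in a single coding exon, whereas Vmn2r genes have several exons and a long extracellular domain. In the gene table the median length was 950 bp for Olfr, 924 bp for Vmn1r and 24392 bp for Vmn2r genes, against 19058 bp for other protein-coding genes. Annotated lengths were a multiple of 3 for 78.7% of Olfr and 87.0% of Vmn1r genes, against 34.7% of Vmn2r and 34.3% of other genes. Many Olfr and Vmn1r entries may therefore cover the coding sequence alone, with their annotated start at the start codon.

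The sequence of annotated promoter windows shows where some of these peaks fell. For genes annotated from the start codon, such a window may not hold the transcription start. Peaks of 2 lists reached the RefSeq promoter window (250 bases before to 50 after the annotated start, build mm10) of 5 receptor genes, and all 5 windows are printed 5′ to 3′ on the gene's strand. Capitals mark bases covered by peaks of 2 lists.
Olfr1412, chr1:92588082-92588381, plus strand: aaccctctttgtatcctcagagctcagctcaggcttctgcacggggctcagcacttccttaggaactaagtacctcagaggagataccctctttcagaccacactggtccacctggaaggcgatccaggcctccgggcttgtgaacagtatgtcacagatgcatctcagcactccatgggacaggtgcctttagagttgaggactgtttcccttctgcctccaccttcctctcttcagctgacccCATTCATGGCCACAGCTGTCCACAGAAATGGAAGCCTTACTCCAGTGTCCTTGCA
Olfr530, chr7:140373559-140373858, minus strand: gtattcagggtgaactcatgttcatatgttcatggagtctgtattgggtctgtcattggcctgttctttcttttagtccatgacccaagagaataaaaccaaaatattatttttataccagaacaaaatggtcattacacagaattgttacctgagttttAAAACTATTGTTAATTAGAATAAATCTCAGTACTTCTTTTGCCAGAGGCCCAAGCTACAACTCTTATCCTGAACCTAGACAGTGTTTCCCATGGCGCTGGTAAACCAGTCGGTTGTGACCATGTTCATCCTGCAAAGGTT
Vmn2r43, chr7:8260550-8260849, minus strand: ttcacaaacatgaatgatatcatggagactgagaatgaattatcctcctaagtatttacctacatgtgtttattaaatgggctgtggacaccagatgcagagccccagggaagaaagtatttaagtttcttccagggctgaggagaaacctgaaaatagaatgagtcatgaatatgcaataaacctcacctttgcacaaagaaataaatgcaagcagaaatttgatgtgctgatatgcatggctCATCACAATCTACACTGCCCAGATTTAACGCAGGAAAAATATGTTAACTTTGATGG
Vmn2r39, chr7:9030633-9030932, minus strand: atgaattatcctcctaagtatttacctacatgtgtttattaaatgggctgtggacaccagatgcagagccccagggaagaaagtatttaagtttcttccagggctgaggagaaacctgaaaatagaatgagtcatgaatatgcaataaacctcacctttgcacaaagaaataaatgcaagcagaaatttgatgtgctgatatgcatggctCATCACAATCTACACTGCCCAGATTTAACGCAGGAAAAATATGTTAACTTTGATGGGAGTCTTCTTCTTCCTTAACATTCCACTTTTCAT
Vmn2r38, chr7:9097716-9098015, minus strand: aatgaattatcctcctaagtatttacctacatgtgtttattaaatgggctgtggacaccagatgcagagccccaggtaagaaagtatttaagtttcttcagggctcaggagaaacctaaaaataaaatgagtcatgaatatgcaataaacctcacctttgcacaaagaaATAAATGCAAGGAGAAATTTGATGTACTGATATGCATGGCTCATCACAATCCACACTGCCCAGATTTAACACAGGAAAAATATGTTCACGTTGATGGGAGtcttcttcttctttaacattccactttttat
In Olfr1412 the capitals took up the last 55 bases and in Olfr530 the last 140. The pair Vmn2r43 and Vmn2r39 shared an unbroken run of 266 bases, set 34 bases apart in the windows, and in both genes the capitals began at the same shared bases. Vmn2r38 shared runs of 76 and 75 bases with these windows.

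Receptor genes carried fewer peaks than the rest of the same chromosomes in every list. Peaks with their centre in a receptor window (gene plus 5 kb to each side, 19.8 Mb in all) numbered 195 in even replicate 1, 138 in even replicate 2, 135 in odd replicate 1 and 206 in odd replicate 2. The density of the rest of the same chromosomes gave 323, 198, 220 and 263. The ratios of observed to expected peaks were 0.604, 0.697, 0.613 and 0.782, a mean of 0.674 ± 0.0833 (SD, n = 4 lists). All 4 lists lay below 1. The mean log2 ratio was -0.58 ± 0.17 (SD), and the exact two-sided sign-flip test over the 4 lists gave p = 0.13, the smallest value it allows. In peaks per Mb, receptor windows held 9.87, 6.99, 6.83 and 10.4 and the rest 16.3, 10.0, 11.1 and 13.3 in the same order.

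No difference between the probe sets was detected. The even minus odd difference in log2 ratio was -0.094 (exact two-sided permutation p = 0.667, smallest possible 0.33). The ratios were lower in both replicate 1 lists than in both replicate 2 lists, a log2 difference of -0.28 (exact permutation p = 0.33, the smallest possible). Replicate number also names the input each list was called against, and pulldown and input cannot be told apart.

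Receptor peaks differed from other peaks in width by less than the spread of the lists. Median widths of receptor peaks were 394, 386.5, 247 and 418 bp, against 399, 405, 247 and 407 bp for all others (mean log2 difference -0.012, exact sign-flip p = 0.75). Scores, which are the authors' and were compared only within a list, had a median of 277.62 against 264.52 in even replicate 2 and 220.75 against 220.25 in odd replicate 2. In both replicate 1 lists most peaks share a score of 3100, and so did both medians. The highest receptor score in odd replicate 2 was 907.88, at the promoter of Vmn2r43.

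Each receptor class lay below its expected number on average. At Olfr genes the ratios were 0.572, 0.624, 0.578 and 0.717 in the order above (0.623 ± 0.0670, SD, n = 4), with 401 peaks observed and 645 expected in all. Vmn1r genes gave 0.510, 0.771, 0.774 and 0.753 (0.702 ± 0.129, SD, n = 4) and Vmn2r genes 0.754, 0.860, 0.617 and 0.987 (0.804 ± 0.157, SD, n = 4). No list of any class exceeded 1. Vomeronasal genes together were less depleted than olfactory genes in all 4 lists, by 0.29 ± 0.091 in log2 (SD, exact sign-flip p = 0.13, the smallest possible). That order did not hold for the genes without their flanks, where the difference was -0.057. Vomeronasal genes include an array of 17 Vmn2r genes on chromosome 7, described further on. The ratios over its span were 1.31, 2.30, 1.42 and 2.25, and the class difference without it was not computed.

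**Figure D1:**
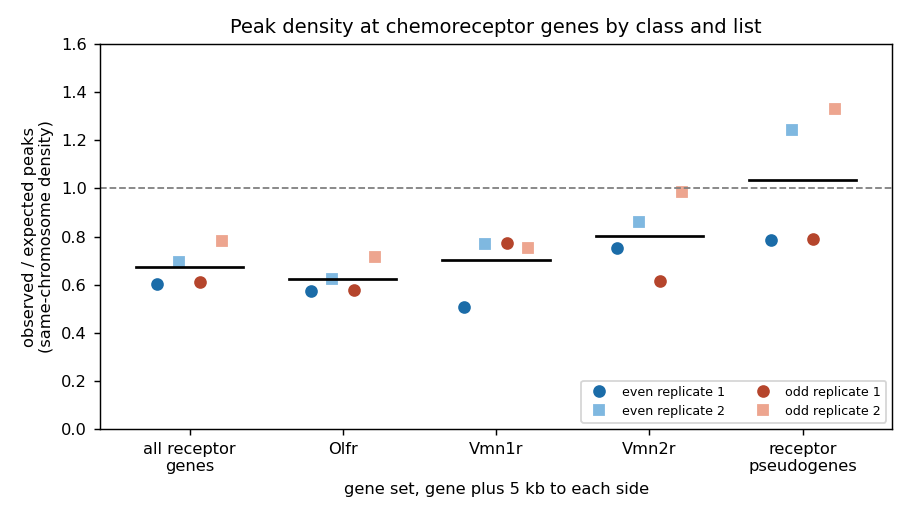
Observed over expected peaks (y axis, no unit) for all receptor genes, each receptor class and receptor pseudogenes (x axis), with 1 point per list and a bar at the mean of the 4 lists. The dashed line is the density of the rest of the same chromosomes, and every point of the 3 receptor classes lies below it.

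Receptor pseudogenes differed between the replicate numbers. For 607 pseudogenes of the same families, counted over 7.21 Mb outside the windows of protein-coding receptor genes, the ratios were 0.787 and 0.789 in the replicate 1 lists and 1.24 and 1.33 in the replicate 2 lists. They lay below the chromosome's density in one pair and above it in the other, with no overlap (exact permutation p = 0.33, the smallest possible).

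In the mean over lists, peak density was lowest within 5 kb of receptor genes and reached 1 only outside the clusters. Taking ground over 1 Mb from any receptor cluster as 1, the mean ratio was 0.809 ± 0.114 (SD, n = 4) in gene bodies, 0.632 ± 0.103 within 5 kb, 0.790 ± 0.236 from 5 to 20 kb, and 0.895 ± 0.146 in the parts of cluster spans over 20 kb from a receptor gene. Outside the clusters it was 1.11 ± 0.0242 within 500 kb and 1.16 ± 0.0259 from 500 kb to 1 Mb, above 1 in all 4 lists. Within 5 kb the 4 lists gave 0.515, 0.699, 0.578 and 0.735. From 5 to 20 kb the lists divided by replicate number, at 0.613 and 0.560 in the replicate 1 lists and 0.977 and 1.01 in the replicate 2 lists, so odd replicate 1 was lower there than within 5 kb.

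**Figure D2:**
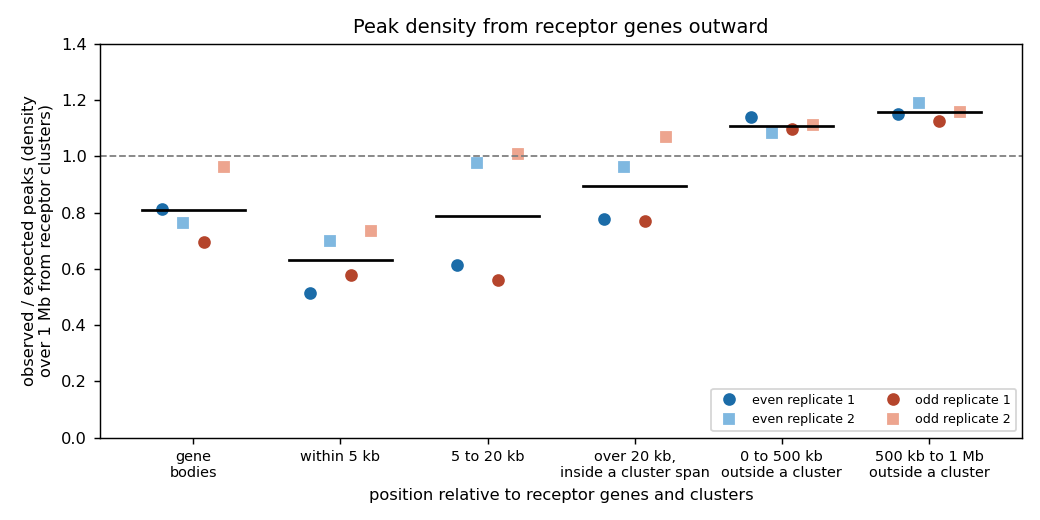
Observed over expected peaks (y axis, no unit) in ground at increasing distance from receptor genes (x axis), with 1 point per list and a bar at the mean. The lowest mean, 0.632, is within 5 kb of the genes, and all points outside the clusters lie above 1.

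Peaks near the annotated start of receptor genes varied between the lists. For many receptor genes this start may be the start codon, unlike that of most other genes. Over 1267 receptor genes with an annotated start, the number of peak centres per 2 kb within 2 kb of it was compared with that at 10 to 20 kb. It was 0.968, 0.653, 1.32 and 0.789 times as high in the 4 lists. For other protein-coding genes the same figure was 1.17, 1.16, 1.24 and 1.17. Other genes exceeded 1 in all 4 lists and receptor genes in odd replicate 1 only. There 40 peak centres were counted within 2 kb of receptor starts, and the figure was above that of other genes. A peak near several starts was counted once for each. In dense arrays, ground 10 to 20 kb from 1 receptor gene can also lie beside another. The highest 2 kb bin of receptor genes was the first after the start in even replicate 1 (26.8 per 1000 starts) and odd replicate 1 (22.1), and lay over 10 kb from it in both replicate 2 lists. In even replicate 1 a bin upstream was nearly as high, at 26.0, and the bin just before the start held 11.0. The difference between the gene sets was not tested.

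**Figure D3:**
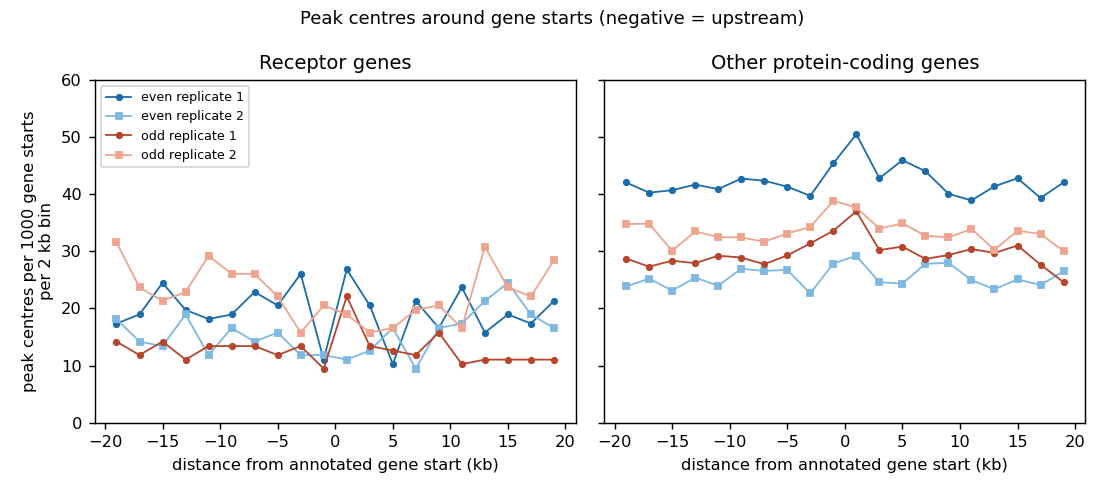
Peak centres per 1000 gene starts in 2 kb bins (y axis) against distance from the annotated gene start in kb (x axis, negative upstream), 1 line per list, for receptor genes (left) and other protein-coding genes (right). Other genes peak beside the start in every list, reaching 50.5 in even replicate 1. The highest bin of receptor genes is the first after the start in both replicate 1 lists, at 26.8 and 22.1. In even replicate 1 an upstream bin nearly equals it, at 26.0. The highest bins of the replicate 2 lists, 24.5 and 31.6, lie away from the start.

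Large clusters were nearly all below the rest of their chromosome. Of 23 clusters with 20 or more genes, which hold 1179 of the receptor genes, 22 had a mean ratio under 1. Among 1235 stretches of 1 Mb outside receptor clusters on the same chromosomes, 54.4% did. The ratio was below 1 in all 4 lists for 15 of the 23 clusters, against 23% of those stretches. The median ratio of the clusters was 0.651, against 0.964 for the stretches. Set beside stretches of their own length on their own chromosome, 11 of the 23 clusters had under 5% of stretches with fewer peaks, and 4 had none. The 36 clusters of 2 to 19 genes held 760 peaks against 787 expected, with 29 of them below 1 and a median ratio of 0.775. How many stretches of such lengths fall below 1 was not computed. At the median of these clusters, 36.9% of stretches of the cluster's own length held fewer peaks. A single array of 17 Vmn2r genes, described further on, supplied 195 of these peaks, and the other 35 clusters held 565 against 677.

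The lowest large cluster was on chromosome 7, with 25 Olfr genes from Olfr693 to Olfr716 (chr7:106672534-107153329). It held 3, 0, 1 and 2 peaks in the same order, 6 in all, where 26.1 were expected, and none of 248 stretches of its length held fewer. Next came 25 Olfr genes on chromosome 16 (Olfr172 to Olfr209), with 1, 2, 2 and 4 peaks, 9 against 28.1 expected. The third was a group of 37 Olfr genes on chromosome 2 (Olfr1275 to Olfr1318), with 4, 6, 5 and 5 peaks, 20 against 45.0 expected, and none of 182 stretches was lower. All 3 stayed below 1 in each list, with mean ratios of 0.206, 0.335 and 0.472.

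The largest array of the genome, 222 Olfr genes over 5081 kb of chromosome 2 (Olfr987 to Olfr1274), held 31, 35, 26 and 52 peaks. That made 144 peaks against 244 expected, and none of 32 stretches of that length held fewer. The class I olfactory receptors, the family related to the receptors of fish, lie in a single array on chromosome 7 that also encloses the beta-globin genes. Its 126 Olfr genes (chr7:102471773-105374317) held 32, 26, 15 and 24 peaks, 97 against 158 expected, at a mean ratio of 0.620 ± 0.163 (SD, n = 4). It also held 6 of the 37 regions with peaks of both probe sets, more than any other cluster.

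The 3 highest large clusters by mean log2 ratio stood above or near 1. On chromosome 13, 12 Olfr and 36 Vmn1r genes (Olfr1370 to Vmn1r223) held 37, 17, 25 and 38 peaks, 117 against 103 expected, a mean ratio of 1.11 ± 0.230, and 39 of 52 stretches held fewer. A chromosome 14 cluster of 28 Olfr and 2 Vmn2r genes held 68 peaks against 71.2 expected (mean ratio 0.970 ± 0.186). A chromosome 6 cluster of 20 Olfr genes held 34 against 36.3 (0.957 ± 0.153). None of these 3 differed from 1 by more than the spread of its lists. The array of 86 Vmn1r genes on chromosome 7, described further on, had a mean ratio of 0.927 ± 0.620. Both its replicate 2 lists lay above 1.

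Clusters that enclosed more genes of other kinds per Mb tended to have higher ratios. Across the 23 large clusters, the number of other protein-coding genes per Mb of span correlated with the mean log2 ratio at Spearman's rho 0.78 and Pearson's r 0.64 (a description over clusters, which share the 4 lists). The 3 lowest clusters enclosed no other protein-coding gene, and the 2 highest enclosed 37 and 24. Others departed from this order. The class I cluster enclosed 27 at a mean ratio of 0.620, and the chromosome 6 cluster of 20 Olfr genes enclosed 3 at 0.957. The 14 clusters with under 5 such genes had a median ratio of 0.620 and the other 9 of 0.733.

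**Figure D4:**
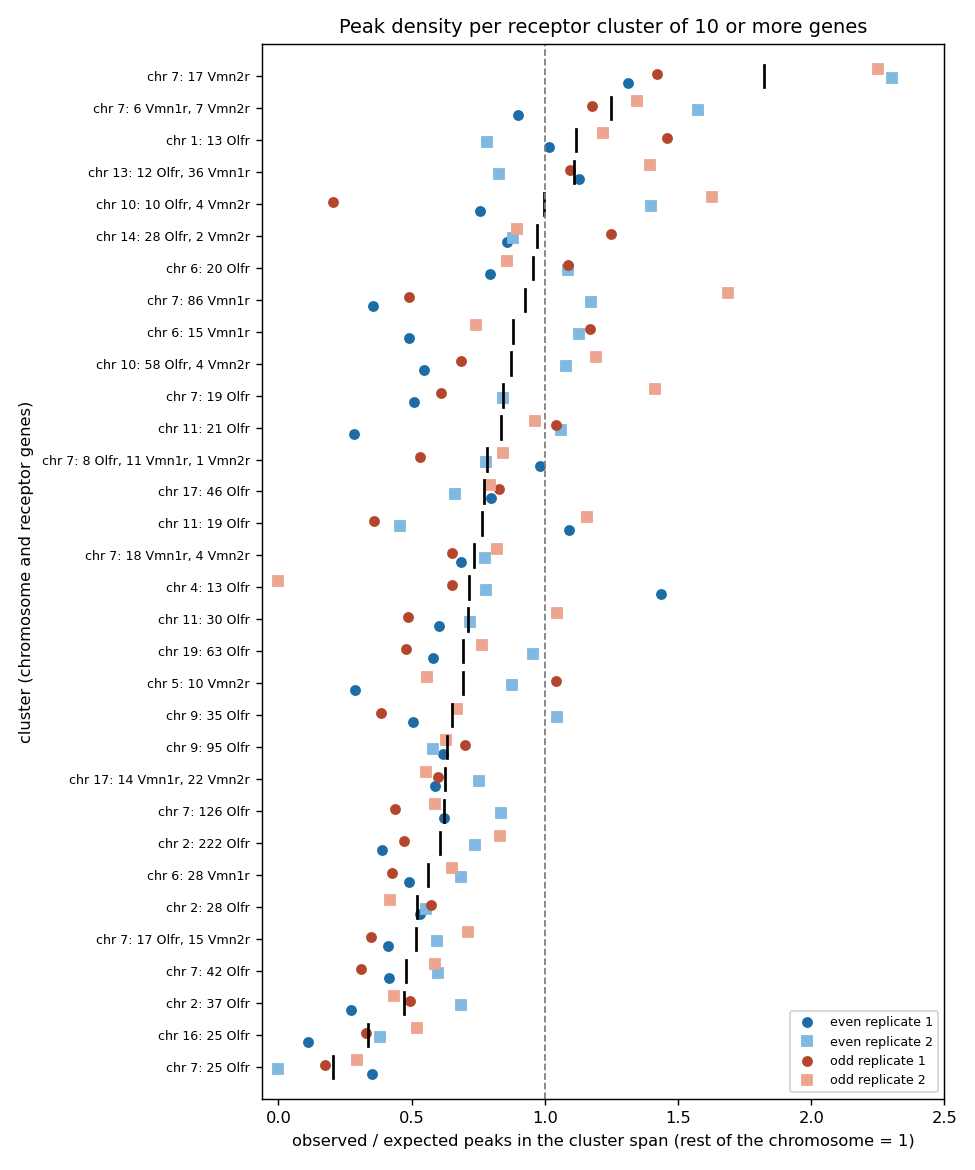
Observed over expected peaks in the span of each receptor cluster of 10 or more genes (x axis, no unit), 1 row per cluster with its chromosome and gene classes, 1 point per list and a bar at the mean. Most bars lie left of the dashed line at 1, and the cluster of 17 Vmn2r genes at the top is the one with all 4 points above 1.

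A Vmn2r array went the other way. This cluster, named after its values were seen, has 17 Vmn2r genes on chromosome 7 (Vmn2r29 to Vmn2r37, chr7:7207996-9228653). It held 47, 50, 34 and 64 peaks, even lists first, where 35.8, 21.7, 23.9 and 28.4 were expected. The ratios were 1.31, 2.30, 1.42 and 2.25, and 54 of 55 stretches of its length held fewer peaks. It was above 1 in every list, and more so in the replicate 2 lists. Vmn2r38 and Vmn2r43 in this array had the most peaks of any receptor gene, 6 each, Vmn2r38 with 2, 1, 0 and 3 and Vmn2r43 with 0, 0, 3 and 3. Vmn2r39, also in it, had 5, as did Olfr382 on chromosome 11, Olfr646 on chromosome 7 and Vmn2r59 elsewhere on chromosome 7. The Vmn2r genes are long, and peaks per window length were higher at Olfr382, at 4.57 per 10 kb, than at Vmn2r43, at 2.29.

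Some peaks recurred at equal positions in genes with shared promoter sequence. The odd replicate 1 peaks at the promoters of Vmn2r43 and Vmn2r39 were both 214 bp wide and lay 770117 bp apart. The odd replicate 2 peaks there were both 288 bp wide, with scores of 907.88 and 868.22, and also lay 770117 bp apart. Another pair of equal spacing stood 2669 to 3117 bp from Vmn2r32, in this array, and Vmn2r49, in the next one, where peaks of 332 bp in even replicate 1 and of 284 bp in odd replicate 2 both lay 2512268 bp apart. Sequence at those peaks was not compared. In odd replicate 2 alone, Vmn2r31 and Vmn2r33, whose promoter windows are identical, had peaks of 472 bp at the same offset, and so did Vmn1r139 and Vmn1r157 in the largest Vmn1r array, at 304 bp, whose windows are identical too. Only the promoter windows were compared, and the peaks at these promoters reached beyond them. In odd replicate 1, 56 and 90 of the 214 bp lay inside the windows of Vmn2r43 and Vmn2r39. How reads that fit several copies were placed is not stated. Whether the copies share reads was not tested, so it is uncertain which copy these peaks belong to.

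Promoter windows with a near copy were counted apart. Of 1272 promoter windows, 167 shared a run of at least 100 bases with another receptor window, and 13 of them (7.78%) overlapped a peak, against 25 of 1105 (2.26%) without such a copy. By list it was 2, 0, 4 and 10 windows with a copy, against 8, 5, 3 and 11 without, so odd replicate 2 held most of the former and even replicate 2 none. Of the 13, 8 were Vmn2r windows, all in the chromosome 7 array above, whose high density had already been seen. Among Vmn1r windows it was 2 of 83 with a copy and 1 of 123 without, and among Olfr windows 3 of 44 and 23 of 904. The difference was not tested. The share of reads placed at more than 1 site is not in these files, and its part in these counts was not tested.

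The largest Vmn1r array showed the widest gap between replicate numbers among the 23 large clusters. Its 86 Vmn1r genes on chromosome 7 (Vmn1r91 to Vmn1r183, 3965 kb) held 25 and 23 peaks in the replicate 1 lists and 50 and 94 in the replicate 2 lists. The ratios were 0.356 and 0.491 in the former and 1.17 and 1.69 in the latter. Both replicate 1 lists lay below both replicate 2 lists in 11 of the 23 large clusters, against 16.9% of the 1 Mb stretches outside clusters. The opposite order held in 1 cluster, against 18% of stretches. The mean log2 ratio was lower in the replicate 1 lists in 17 of the 23 clusters, against 46.9% of stretches.

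Few receptor peaks recurred between lists. Of the 629 regions, 574 (91.3%) had peaks of 1 list, 44 of 2, 10 of 3 and 1 of 4, and other regions on the same chromosomes had peaks of 1 list in 88.6%. In each of the 6 pairs of lists, receptor peaks overlapped less often than other peaks did. The share of a list's peaks that overlapped a peak of the other list, averaged over both lists, was 10.8% against 16.4% for both even lists and, for both odd lists, 7.13% against 11.5%. Between probe sets it ranged from 4.11% to 11.3% for receptor peaks and from 6.35% to 12.5% for others. The smallest gap was between even replicate 1 and odd replicate 1, at 11.3% against 12.5%. These shares were not adjusted for the lower peak density in receptor windows, and the differences were not tested.

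Fewer receptor genes than genes overall had a peak nearby. By list, 189 receptor genes (12.9%) in even replicate 1, 138 (9.42%) in even replicate 2, 136 (9.28%) in odd replicate 1 and 188 (12.8%) in odd replicate 2 had a peak inside or within 5 kb. Of all protein-coding genes, 48.9%, 35.5%, 40% and 42.7% did. A peak of any list lay inside or within 5 kb of 482 receptor genes (32.9%), against 74.9% of all protein-coding genes. The remaining 983 receptor genes had none. By class, 323 Olfr (29.1%), 73 Vmn1r (31.6%) and 86 Vmn2r genes (69.4%) had a peak, the Vmn2r genes being the long ones. Among genes under 2 kb the share was 28.2% of receptor genes and 45.4% of others.

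Regions with at least 1 even and 1 odd list lay near 36 receptor genes (2.46%), namely 26 Olfr, 5 Vmn1r and 5 Vmn2r, against 16% of all protein-coding genes. For genes under 2 kb it was 1.88% of receptor genes and 7.99% of others. Leaving out even replicate 1 left 11 genes, leaving out odd replicate 1 left 22 and leaving out odd replicate 2 left 21. The number was 17 with the genes alone and 110 with 20 kb to each side. Regions of 3 or more lists lay near 11 receptor genes (0.751%), against 6.88% of all protein-coding genes.

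Those 11 genes were Olfr646, Olfr449, Olfr678, Olfr231, Olfr317, Olfr765, Olfr39, Olfr1412, Vmn1r88, Olfr382 and Olfr1449. All but Vmn1r88, a vomeronasal receptor of the V1R family, encode olfactory receptors. In 5 genes the region overlapped the gene itself. These were Olfr646 (chr7:104103249-104104143), Olfr231 (chr1:174117381-174117819), Olfr317 (chr11:58732570-58733119), Olfr1412 (chr1:92588307-92588807) and Olfr1449 (chr19:12935077-12935495). The region in Olfr646, a class I receptor, was the one with all 4 lists, and measured 895 bp inside a gene of 9904 bp.

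The strength of these regions varied between lists. Odd replicate 2 placed the Olfr678 region, 4870 bp upstream of its gene, at a score of 816.68, higher than 98.0% of that list. The Olfr646 region scored 650.32 there, above 96.1% of the list, and 157.35 in even replicate 2, above 14%. Even replicate 2 scored the Olfr317 region at 541.4, above 90.6% of the list. Olfr1449 scored 108.48 in odd replicate 2, above 6.97%. The Olfr449 region scored 382.05 in even replicate 2, above 74.4% of the list, and 440.64 in odd replicate 2, above 88.1%. The replicate 1 lists, where most peaks share 1 score, give no such ranking.

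The other even and odd regions had peaks of 1 list from each set. The highest in odd replicate 2 were inside Vmn2r91 and Vmn2r113 on chromosome 17, at 865.83 and 845.49, and between Olfr994 and Olfr995 on chromosome 2, at 769.37, each with an even replicate 1 peak. In a chromosome 1 cluster of 8 Olfr genes (Olfr1416 to Olfr12, chr1:92474681-92626001), singled out after its values were seen, 3 neighbouring genes had such a region, namely Olfr1412, Olfr1413 and Olfr1414. This cluster held 6, 2, 1 and 5 peaks, 14 against 6.81 expected, and 1208 of 1262 stretches of its length held fewer.

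Promoter windows of receptor genes were poor in G and C, with a median of 35.7% against 57.3% for other protein-coding genes. Windows of receptor genes annotated from the start codon may lie away from the transcription start, which limits each comparison with other genes. A peak of any list overlapped 38 of the 1272 receptor windows (2.99%) and 4.87% of other windows. Among windows with at most 46.3% G and C it was 30 of 1201 receptor windows (2.5%) and 112 of 3175 others (3.53%). Within that limit receptor windows were still poorer in G and C, with a median of 35.3% against 42.7%. The few receptor windows richer in G and C went the other way, with 6 of 60 (10%) against 5.62% between 46.7% and 53.3%, and 2 of 9 against 5.17% between 53.7% and 59.7%. By list, the shares among windows with at most 46.3% were 0.583, 0.416, 0.50 and 1.33% for receptor genes and 1.29, 0.945, 0.787 and 1.13% for others, lower for receptor genes in 3 of 4 lists and higher in odd replicate 2.

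Motifs of known olfactory promoter factors were looked for in these windows. Both motifs used are their own reverse complements, so 1 search covers both strands. The Ebf motif (TCCC, any 2 bases, GGGA) was in 0.393% of receptor windows and 0.995% of others. Among windows with at most 46.3% G and C it was in 0.416% of receptor windows and 0.504% of others. The homeodomain core TAATTA, bound by factors such as Lhx2 and Emx2, was in 16.6% and 3.77%, or, among windows with at most 46.3% G and C, in 17.3% and 12.8%. Even there the median G and C was 35.3% for receptor windows and 42.7% for others, so these shares were not matched for it. Of the 5 printed windows only that of Olfr530 held TAATTA, at position 172 from its 5′ end and inside the bases in capitals. A match describes letters in the window and not binding.

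Other gene families set the receptor ratio in context. The zinc finger genes named Zfp, a large family of DNA-binding proteins, had 1.23 ± 0.0322 times the expected number of peaks (SD, n = 4), and receptor genes were lower in all 4 lists, at a mean log2 difference of -0.87. Cyp2 genes, which encode cytochrome P450 enzymes, had 0.898 ± 0.108, and receptors were again lower in all 4 lists, at -0.42. The bitter taste receptors Tas2r had 0.665 ± 0.304, the beta-defensins Defb 0.605 ± 0.170 and the lectin-like receptor genes Klr 0.625 ± 0.0323, close to the receptors. The Skint genes, expressed in skin and thymus, were lower than the receptors in all 4 lists, at 0.292 ± 0.134. Keratin-associated protein genes (Krtap) had 0.933 ± 0.186. The trace amine receptors Taar and formyl peptide receptors Fpr rested on 10 peaks and 1 peak. Over the 9 families the smallest exact sign-flip p was 0.13, the smallest possible, or 0.375 after Benjamini-Hochberg adjustment.

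**Figure D5:**
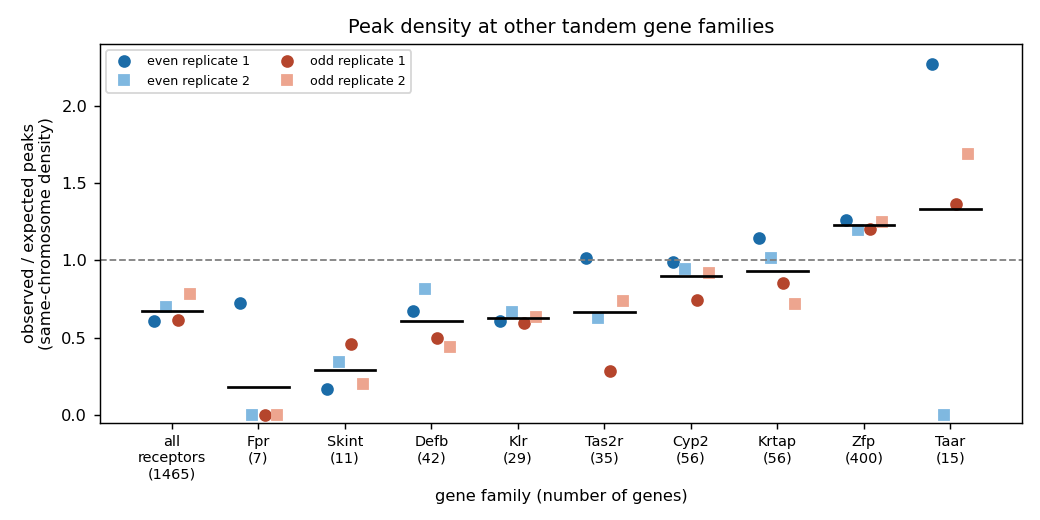
Observed over expected peaks (y axis, no unit) at the receptor genes and 9 other gene families, with the number of genes in brackets (x axis), 1 point per list and a bar at the mean. Receptors, at 0.674, sit near Tas2r, Defb and Klr, above Skint and below Zfp at 1.23.

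A list of 27 other genes known from olfactory or vomeronasal neurons held signal transduction, receptor trafficking and marker genes, and regulators of receptor choice such as Lhx2, Ldb1, Ebf1 and Kdm1a. Of these, 23 had a peak inside or within 5 kb of them, where 74.9% of all protein-coding genes did. A region of both probe sets lay near 11 (40.7%), against 16%. Their median length was 30467 bp, against 19058 bp for protein-coding genes other than receptors, and the shares were not matched for length. Ano2, the calcium-activated chloride channel of the olfactory cilium, had 16 regions, 2 of them with all 4 lists, in a gene of 349715 bp. Ano2 was put on the list with earlier results for it known, and it counts in both shares. Gnao1, a G protein subunit of V2R neurons, had 17 regions and 4 of both probe sets. Omp, the marker protein of mature olfactory neurons, had 3, each of a single list. No peak was near Gng13, Cnga2, Rtp1 or Stoml3, which encode a G protein subunit, a cyclic nucleotide-gated channel subunit, a receptor transporter and a stomatin-like protein of olfactory neurons.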

How the data were processed

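The 4 pulldown libraries analysed were 2 with even and 2 with odd probes. Reads were aligned to mm10 with Bowtie2 2.1.0, per the submitters' processing notes. Scores were deposited with the peaks by the authors, whose peak names start with MACS. Neither the scale of the score nor the call threshold is stated, and scores were used within lists only. Peak lists were not pooled, and depth is unknown. A joined series-wide list was not used, and the values of the 2 input libraries were not analysed here.

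Genes and promoter windows came from RefSeq tables of the same build (49943 genes; 1267 receptor genes had a window). Densities counted peak centres between the first and last peak of a chromosome; cluster spans include 5 kb at both ends. Regions merged peaks overlapping by at least 1 bp. Log2 values of clusters and families used a pseudocount of 0.5. Only exact sign-flip or permutation tests over the 4 lists were run. Genes named were those near regions of 3 or more lists, up to 20 more near even and odd regions, the 5 with most peaks (ties kept), all clusters of 20 or more genes by counts and the 3 highest and lowest in full. The members and lists were chosen with earlier results of these data known. Python 3.11.15, pandas 2.3.3, numpy 2.4.6 and scipy 1.17.1 were used, and the density code was tested on simulated peaks.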

Additional observations from a re-analysis of the deposited data

How the results depend on the processing

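The log2 receptor ratio (-0.58) stayed negative with genes alone, 20 kb flanks, whole cluster spans, any overlap, 4 other references, scores at or above the median or fewer chromosomes (-0.61 to -0.33) and with 1 list left out (-0.65 to -0.53). The median 1 Mb reference was added after seeing the data. The even minus odd difference (-0.094) became 0.023 with scores at or above the median, and ran from -0.27 to 0.082 with 1 list left out, above 0 without even replicate 1 or odd replicate 2. With a replicate block it was -0.094 (exact sign-flip p = 0.5, the smallest possible for 2 pairs). Over 23 clusters the replicate differences of both probe sets correlated at r = 0.23, a hint at most. Lists of equal number were called against the same input, and the labels do not tie them together otherwise. The vomeronasal minus olfactory difference became -0.057 with genes alone; the cause was not tested. The width difference ran from -0.029 to 0.0068 with 1 list left out. The 36 genes with even and odd regions became 17 with genes alone and 110 with 20 kb flanks, by the size of the window, and 11 to 32 with 1 list left out, where fewer lists can pair. Cluster spans gave -0.44 and -0.36 with gaps of 250 and 1000 kb, against -0.39. With 4 lists no exact test can pass 0.05, and unknown depth limits every count of peaks.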
